A study of Anas platyrhynchos with 3 samples.

Results

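Immediate early genes are transcribed within minutes of a stimulus without new protein synthesis, and their products carry the signal on to later genes. Many are switched on through mitogen-activated protein (MAP) kinases acting on serum response factor and its partners, and several encode parts of AP-1, a pair of Jun, Fos or ATF proteins joined by leucine zippers that binds DNA. In mammalian skin AP-1 is known for roles in keratinocyte differentiation and in responses to injury. The genes described here were chosen by name: FOS, FOSL2, JUN, JUND, EGR1, ATF3, IER2, DUSP1, MYC and KLF2. Of these 10 symbols, 8 had a row of their own among the 14938 genes of the bill-skin table, and JUND and IER2 were not analysed here.

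The samples were bill skin of Pekin duck (Anas platyrhynchos) embryos at embryonic day 24 to 26, taken 24 to 48 hours before hatching, after the embryo had pierced its inner shell membrane. There was 1 group with 3 libraries, labelled biological replicates 1, 2 and 3, with no treatment, genotype or second tissue. Nothing in the labels says whether a library came from 1 embryo or from several, so p-values reach no further than these 3 samples. The p-values and SEs draw on each gene's spread between these 3 samples, moderated by the spread of all genes tested. With 1 group, a gene could be compared with other genes inside a library, and libraries could be compared with each other only as descriptions.

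Counted reads came to 32247700, 30630039 and 25268141 in replicates 1, 2 and 3. Levels are FPKM (fragments per kilobase of gene model, scaled to library depth), so genes can be compared with one another as far as the gene lengths behind them hold. A minimum of 1 FPKM in all 3 libraries kept 10605 genes, whose median was 13.3, 13.1 and 13.3 FPKM in the 3 libraries. All 8 genes passed it. Skin markers were present. Above the median gene lay 9 of 12 measured keratinocyte markers and 12 of 15 dermal fibroblast markers, against 43.7% of all genes tested. No measured marker was without reads in every library. The libraries differed in make-up. Fibroblast markers summed to 4132, 7210 and 4238 FPKM in replicates 1, 2 and 3. In replicate 2, 14 of 15 had their highest value, against 34% of the 10605 genes kept. Keratinocyte markers summed to 5303, 4464 and 5112 FPKM, with 11 of 12 lowest in replicate 2. The share of all genes that were lowest in replicate 2 is not given here. In whole skin, fewer cells of a type and less RNA per cell cannot be told apart.

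The immediate early and AP-1 genes ran from JUN, at a mean of 102 FPKM, to ATF3, at 4.14 FPKM. Against the median gene of each library, limma's moderated test on log2(FPKM + 0.1), two-sided with Benjamini-Hochberg adjustment over all 10605 genes, placed 6 of the 8 above, 1 below and 1 not apart. Over all genes tested 43.7% lay above the median gene and 43.6% below it, so that 87.3% were called in one direction or the other. The median of the 8 genes was 1.19 above the median gene on the log2 scale, against -0.01 over all genes tested.

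**Figure D1:**
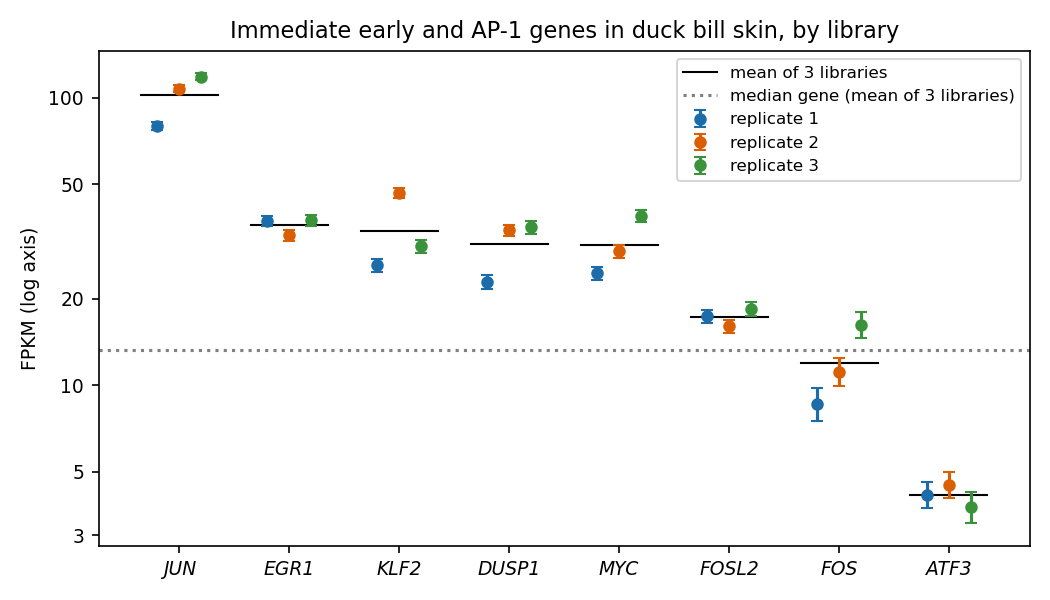
FPKM of each gene in each library (log axis), with points for replicates 1, 2 and 3, bars for the exact 95% Poisson interval of the read count, a line at the mean of the 3 libraries and a dotted line at the median gene. JUN stood between 80.0 and 118 FPKM, FOS straddled the median gene, and ATF3 stayed under 5 FPKM in all 3 libraries.

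JUN encodes the Jun subunit of AP-1, which can pair with itself or with a Fos or ATF protein. It had 80.0, 108 and 118 FPKM in replicates 1, 2 and 3, from 3985, 5247 and 4792 reads. Replicate 1 was the lowest, and the counting intervals of the 3 libraries did not overlap. The mean of 102 ± 19.8 FPKM (SD, n = 3) ranked 719th of the 14938 genes. JUN was 7.56-fold above the median gene (log2 2.92 ± 0.13 SE, limma adjusted p = 4.37e-06) and higher than it in 3 of 3 libraries.

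FOS encodes the Fos protein, which has to pair with a Jun protein to bind DNA. Its level was 8.59, 11.1 and 16.2 FPKM in replicates 1, 2 and 3, from 238, 302 and 364 reads. The shallowest library, replicate 3, held the most FOS reads and the deepest, replicate 1, the fewest. The mean was 12.0 ± 3.86 FPKM (SD, n = 3), and FOS was not apart from the median gene (log2 -0.19 ± 0.18 SE, limma adjusted p = 0.332). That placement rests on the libraries and genes used: without replicate 3 FOS lay below it at log2 -0.41 (limma adjusted p = 0.0478), while without a minimum, where the median gene is lower, it lay above (log2 0.61, limma adjusted p = 0.0337). With a minimum of 5 FPKM it lay below by more, at log2 -0.80 (limma adjusted p = 0.00355). The deposited values imply a gene length of only 879 bases for FOS, against 1579 for JUN, so its level leans on a short gene model.

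FOSL2 encodes Fra-2, a longer-lived Fos-family protein that in mammals is found in differentiating epidermis. It was steady, at 17.4, 16.0 and 18.5 FPKM in replicates 1, 2 and 3, and exceeded FOS in every library. The FOSL2 mean of 17.3 ± 1.23 FPKM (SD, n = 3) was 1.30-fold above the median gene (log2 0.38 ± 0.09 SE, limma adjusted p = 0.00789). With a minimum of 5 FPKM, which raises the median gene, FOSL2 lay below it (log2 -0.22, limma adjusted p = 0.0457).

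ATF3 encodes a stress-induced bZIP protein that can pair with Jun and often represses its targets. It was the lowest of the 8, at 4.15, 4.51 and 3.76 FPKM in replicates 1, 2 and 3, from 344, 366 and 253 reads. The level of ATF3 in replicate 1 was within the counting intervals of both other libraries. Its mean of 4.14 ± 0.376 FPKM (SD, n = 3) was 0.317 times the median gene (log2 -1.66 ± 0.10 SE, limma adjusted p = 1.26e-05).

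Of the AP-1 subunit genes analysed here, JUN exceeded FOS and FOSL2 in FPKM. JUNB, JUND, FOSB and FOSL1 were not analysed, so the balance of all Jun and Fos genes is not given. The ratios with FOS lean on its short gene model. The ratio of JUN to FOS was 9.32, 9.67 and 7.33 in replicates 1, 2 and 3, and that of JUN to FOSL2 was 4.61, 6.72 and 6.41. FOSL2 exceeded FOS by a ratio of 2.02, 1.44 and 1.14. The margin of FOSL2 was thus smallest in replicate 3, where FOS was highest. JUN exceeded ATF3 by a ratio of 19.3, 23.9 and 31.5. These ratios are of transcripts and not of proteins.

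EGR1 encodes a zinc finger factor and, like FOS, is a classical target of serum response factor. It stood at 37.3, 33.2 and 37.5 FPKM in replicates 1, 2 and 3, from 2475, 2158 and 2020 reads, with replicate 2 slightly lower than the others. The mean was 36.0 ± 2.42 FPKM (SD, n = 3), 2.70-fold above the median gene (log2 1.44 ± 0.09 SE, limma adjusted p = 1.61e-05). NAB1, a corepressor that binds EGR1 protein, was higher than EGR1, which stood at 0.519, 0.611 and 0.619 times its FPKM.

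KLF2 encodes a Krüppel-like factor best known from blood vessel endothelium, where it responds to flow. It had 26.2, 46.7 and 30.5 FPKM in replicates 1, 2 and 3. Replicate 2 stood apart, and its counting interval of 45.0 to 48.5 FPKM lay above those of the other libraries. The mean of KLF2 was 34.5 ± 10.8 FPKM (SD, n = 3), 2.51-fold above the median gene (log2 1.33 ± 0.17 SE, limma adjusted p = 0.000468). The 11 endothelial markers measured summed to 165, 146 and 137 FPKM in replicates 1, 2 and 3, a sum that did not peak with KLF2. Of the 11, 3 were highest in replicate 2, near the 34% of all genes tested. Fibroblast markers did peak there. Schwann and lamellar cell markers summed to 510, 902 and 536 FPKM, with 7 of 9 highest in replicate 2. PMP22 and MBP carried most of that sum, and the other 7 summed to 116, 128 and 109 FPKM, with NGFR and ERBB3 lowest in replicate 2. The part of these cells in the KLF2 values was not tested.

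MYC encodes a growth-promoting factor that binds DNA with MAX. Its level was 24.5, 29.2 and 38.8 FPKM in replicates 1, 2 and 3, and the counting intervals did not overlap. The mean of MYC was 30.8 ± 7.26 FPKM (SD, n = 3), 2.28-fold above the median gene (log2 1.19 ± 0.14 SE, limma adjusted p = 0.000289).

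DUSP1 encodes a phosphatase that switches MAP kinases off and is itself an immediate early gene, which closes a feedback loop. It had 22.9, 34.6 and 35.5 FPKM in replicates 1, 2 and 3, with replicate 1 low and the other libraries within each other's counting intervals. The mean of DUSP1 was 31.0 ± 7.01 FPKM (SD, n = 3), 2.29-fold above the median gene (log2 1.19 ± 0.15 SE, limma adjusted p = 0.000369).

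**Figure D2:**
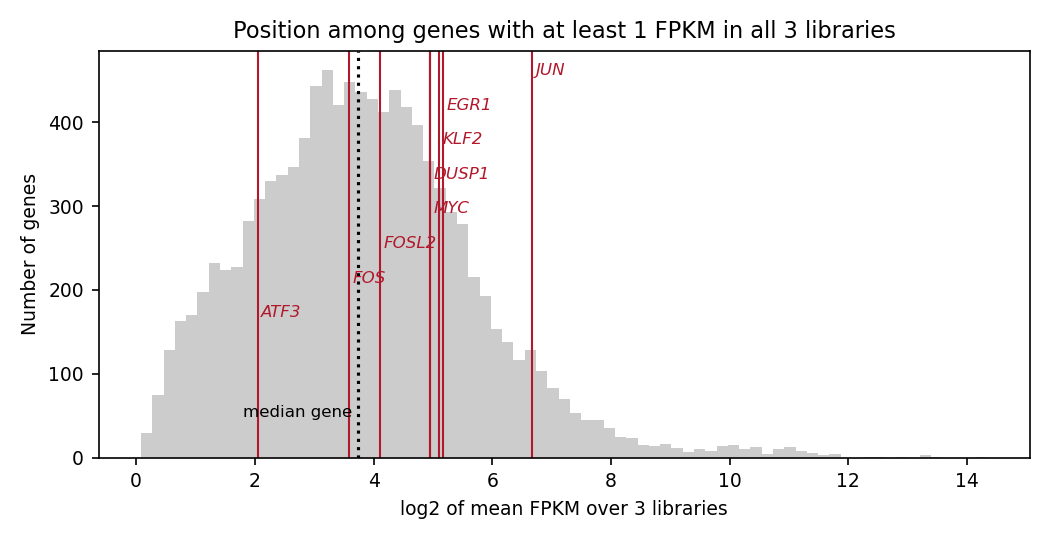
Histogram of log2 mean FPKM over the 3 libraries for the 10605 genes with at least 1 FPKM in all of them, with a red line at each of the 8 genes and a dotted line at the median gene. JUN lies on the right shoulder at 102 FPKM, EGR1, KLF2, DUSP1 and MYC cluster between 30.8 and 36.0 FPKM, and ATF3 lies to the left at 4.14 FPKM.

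By mean level the order was JUN, EGR1, KLF2, DUSP1, MYC, FOSL2, FOS and ATF3. Of the 7 pairs of neighbours in this order, 4 kept it in all 3 libraries and had a mean log2 ratio above the SD of that ratio: JUN over EGR1, MYC over FOSL2, FOSL2 over FOS and FOS over ATF3. FOSL2 over FOS was the closest of the 4, with a mean log2 ratio of 0.58, an SD of 0.41 and a ratio of 1.14 in replicate 3. EGR1, KLF2, DUSP1 and MYC were not separated beyond their spread. EGR1 exceeded KLF2 in 2 of 3 libraries, KLF2 exceeded DUSP1 in 2, and DUSP1 exceeded MYC in 1. An exact sign-flip test over 3 libraries cannot give a two-sided p below 0.25, so the order carries no p.

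Between libraries the genes fell on both sides of the usual spread. The SD of log2 values over the 3 libraries was 0.45 for FOS, 0.43 for KLF2, 0.35 for DUSP1, 0.33 for MYC and 0.29 for JUN, at the 93.2nd, 92.1st, 86.5th, 84.3rd and 79.7th percentile of all genes tested. ATF3 at 0.13, FOSL2 at 0.10 and EGR1 at 0.10 were at the 35.7th, 25.0th and 23.5th percentile. Thus 5 of 8 lay above the 75th percentile, where by construction 25% of all genes lie. The count was 3 without replicate 1 (FOS, MYC and KLF2), 3 without replicate 3 (JUN, DUSP1 and KLF2) and 4 without replicate 2. By edgeR's tagwise biological coefficient of variation, which borrows from all genes and allows for counting error, only FOS at 0.264 and KLF2 at 0.211 of the 8 lay above the 75th percentile. FOS had 238, 302 and 364 reads in replicates 1, 2 and 3, and ATF3, with the SD of 0.13, had 344, 366 and 253. Counting error is part of both SDs, and its share was not computed.

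**Figure D3:**
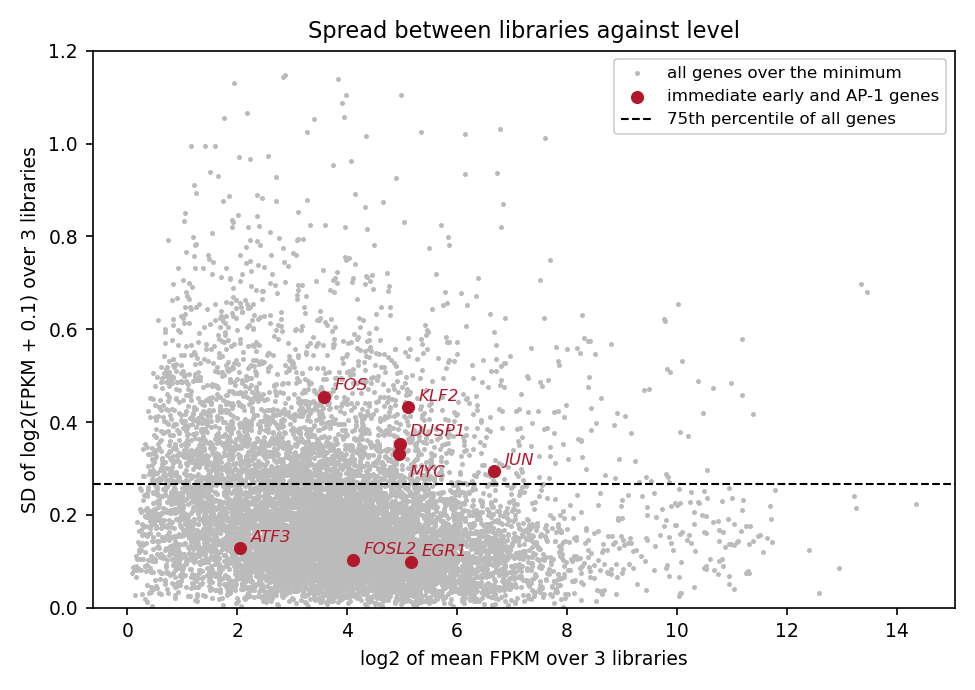
SD of log2(FPKM + 0.1) over the 3 libraries against log2 mean FPKM for all genes over the minimum (grey) and the 8 genes (red), with a dashed line at the 75th percentile. The axis stops at 1.2, with 21 genes beyond it, and FOS, KLF2, DUSP1, MYC and JUN lie over the line while EGR1, FOSL2 and ATF3 lie well under it.

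FOS, JUN, DUSP1 and MYC shared a pattern: each was lowest in replicate 1 and highest in replicate 3. For DUSP1, replicates 2 and 3 lay within each other's counting intervals. The FPKM ratio of replicate 3 to replicate 1 was 1.88 for FOS (exact 95% interval 1.59 to 2.23), 1.58 for MYC (1.47 to 1.70), 1.55 for DUSP1 (1.43 to 1.67) and 1.48 for JUN (1.42 to 1.54). These intervals cover counting error only and compare the libraries, not conditions. Of all genes tested, 0.82% had a log2 difference between replicates 3 and 1 at least as high as that of FOS, 2.31% as that of MYC, 2.64% as that of DUSP1 and 3.38% as that of JUN. The same share was 19.3% for KLF2, 36.7% for FOSL2, 49.8% for EGR1 and 71.2% for ATF3. FOS, MYC, DUSP1 and JUN were grouped after their values were seen, so these shares describe the pattern and are no support for it.

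The remaining genes went other ways. For EGR1 the ratio of replicate 3 to replicate 1 was 1.00 (0.947 to 1.07), and for FOSL2 it was 1.06 (0.985 to 1.15). ATF3 had a ratio of 0.905 (0.767 to 1.07), with an interval that holds equality. Its ratio of replicate 3 to replicate 2 was 0.833 (0.707 to 0.981), with an interval below equality. KLF2 differed most between replicates 2 and 1, with a ratio of 1.79 (1.68 to 1.90). Of all genes tested, 2.86% had a log2 difference at least as high. That comparison was picked as the largest for KLF2, so the share describes it and is no support for it. EGR1 did not follow FOS across these libraries: the ratio of EGR1 to FOS was 4.35, 2.99 and 2.32 in replicates 1, 2 and 3.

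Counted together, 5 of 8 were lowest in replicate 1, where 32.3% of all genes tested had their lowest value. In replicate 3, 6 of 8 were highest, where 32.9% of all genes had their highest. Some of these 6 were near ties. For EGR1 and FOSL2 the interval for replicate 3 over replicate 1 held equality. For DUSP1 the ratio of replicate 3 to replicate 2 was 1.03 (0.957 to 1.10). The counts of 5 and 6 were the same under total-count scaling without TMM and with DESeq2 size factors. Those scalings moved the median of all genes by at most 0.03 on the log2 scale. The 6 leukocyte markers measured summed to 14.9, 26.9 and 17.6 FPKM in replicates 1, 2 and 3, and to 9.50, 12.4 and 11.9 FPKM without CD74. CD74, CD3D and LAPTM5 were lowest in replicate 1, and CSF1R, PTPRC and CD3E, all under the minimum, were lowest in replicate 3. Of the 6, 5 were highest in replicate 2, against 34% of all genes tested. The 4 skeletal muscle markers measured summed the other way, to 75.8, 46.3 and 21.7 FPKM. MYL1 carried most of those sums, at 53.0, 29.7 and 11.5 FPKM. ACTA1, TNNC2 and TNNT3 were highest in replicate 1 as well, but TNNT3 had 173, 0 and 3 reads and was under the minimum. The part of leukocytes or muscle in the pattern was not tested.

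**Figure D4:**
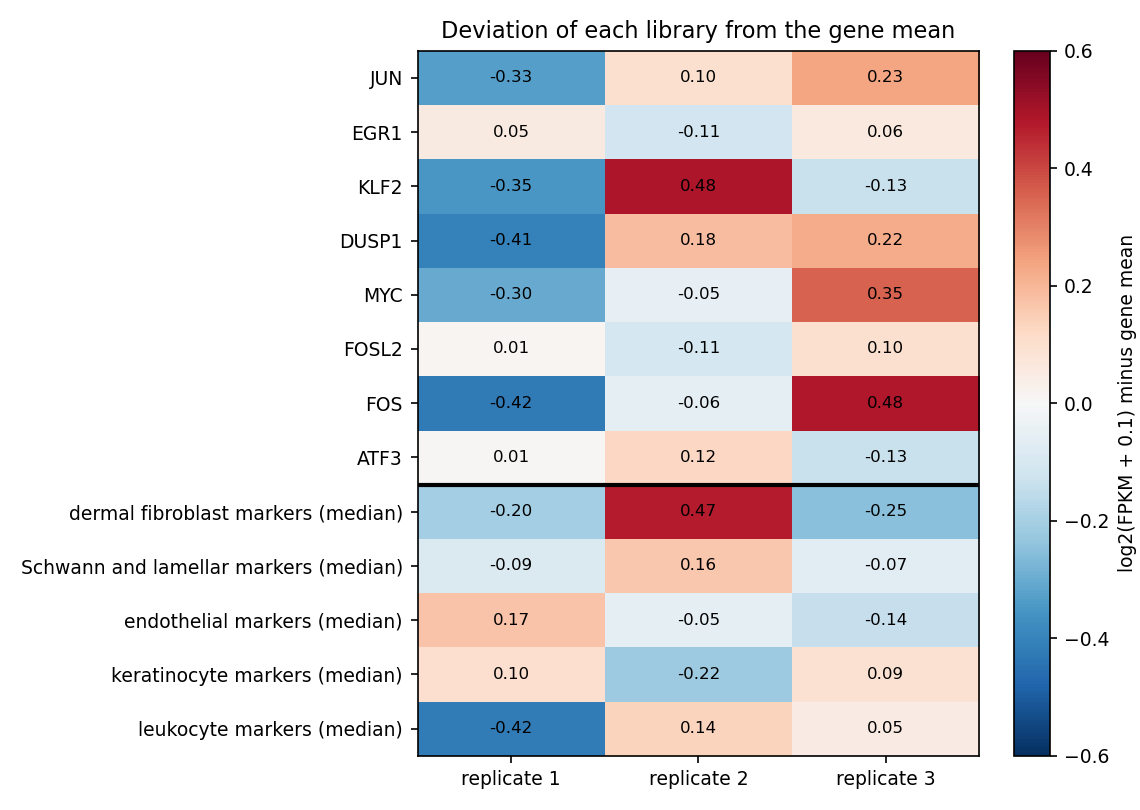
Deviation of each library from the gene's own mean of log2(FPKM + 0.1), in columns for replicates 1, 2 and 3. Above the line are the 8 genes, and below it medians over the cell type markers that passed the minimum. The leukocyte row rests on 3 of 6 markers and leaves out CSF1R, PTPRC and CD3E, which were lowest in replicate 3. FOS runs -0.42, -0.06 and 0.48 and KLF2 peaks at 0.48 in replicate 2, while EGR1, FOSL2 and ATF3 stay within 0.13 of their mean.

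Among the 28 pairs that the 8 genes form, EGR1 and FOSL2 kept the steadiest ratio, 2.15, 2.07 and 2.03 in replicates 1, 2 and 3 (SD of the log2 ratio 0.04). JUN and DUSP1 came next, with 3.49, 3.11 and 3.34 (SD 0.08), followed by MYC and FOS with 2.86, 2.63 and 2.40 (SD 0.13). KLF2 and FOS moved most apart, with 3.05, 4.20 and 1.89 (SD 0.58). Ratios over 3 libraries describe these libraries and say nothing of shared control.

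Of 97 tested genes in 6 related lists, among those whose deviations over the 3 libraries lay nearest to the median profile of the 8 genes (-0.32, 0.02 and 0.16 in log2) were the MAP kinase pathway gene MAP2K4 at a Euclidean distance of 0.15, the EGR corepressor gene NAB2 at 0.18, the phosphatase gene DUSP8 at 0.22 and the stress factor gene DDIT3 at 0.22. NAB2, for instance, had 2.12, 2.32 and 2.61 FPKM in replicates 1, 2 and 3, from only 43, 46 and 43 reads. Counting error is large at such counts, and no counting interval was computed for NAB2. With 3 libraries many profiles come close by construction.

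Of 19 genes tested in the wider bZIP family, of 20 measured, 11 were above the median gene, 6 below and 2 not apart, with a median of 0.48 above it in log2. The shares over all genes tested, 43.7% above and 43.6% below, hold for this and the following lists, none of which was tested as a list. Among the highest were ATF4, the main factor of the integrated stress response, at 707 ± 110.3 FPKM, CEBPB at 109.6 ± 17.3 and the CREB relative ATF1 at 81.7 ± 4.29 (SD, n = 3). JUN stood at 0.128, 0.129 and 0.178 times the FPKM of ATF4 in replicates 1, 2 and 3. CEBPB rests on an implied length of only 355 bases. JDP2, a repressor that pairs with JUN and is named after its values were seen, was at 2.70 ± 0.360 FPKM, with a ratio of JUN to JDP2 of 33.2, 34.6 and 45.7.

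Of 23 other immediate early genes tested, of 27 measured, 13 were above the median gene, 6 below and 4 not apart. The median of the 23 was 1.15 above it in log2, which leaves out the 4 genes under the minimum. Over all 27 measured, the median of the mean FPKM was 16.1, against 30.9 for the 8 genes. The highest were the antiproliferative gene BTG1 at 704 ± 73.2 FPKM, the mRNA decay factor gene ZFP36L1 at 171 ± 8.45, ID3, an inhibitor of helix-loop-helix factors, at 125 ± 3.44 and the matricellular gene CTGF at 112 ± 67.1 (SD, n = 3). CTGF was highest in replicate 2, with 62.6, 188 and 85.2 FPKM, and averaged 73.9 FPKM without it. BTG2 and ID2, named after their values were seen, averaged 82.4 and 82.2 FPKM without replicate 2. The place of CTGF among the 4 highest thus rests on replicate 2. In this list 16 of 23 were highest in replicate 2 and 2 in replicate 3, against 34% and 32.9% of all genes. Some of the 16 led narrowly: ID3, for instance, had 121, 128 and 125 FPKM in replicates 1, 2 and 3. No counting intervals were computed for this list. Of the 8 genes above, 6 were highest in replicate 3, some of them by margins within counting error. Fibroblast markers peaked in replicate 2 as well, and their part in these counts was not tested.

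Under the minimum in that list were 4 genes, named after their values were seen: NR4A3 at 0.507 ± 0.112 FPKM, NPAS4 at 0.340 ± 0.125, ARC at 0.0997 ± 0.0412 and EGR4 at 0.0751 ± 0.0296 (SD, n = 3). NPAS4 and ARC are known as activity-induced genes of neurons. EGR3, a paralog of EGR1 and likewise chosen after its values were seen, was at 14.2 ± 2.19 FPKM and not apart from the median gene (log2 0.09, limma adjusted p = 0.481).

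**Figure D5:**
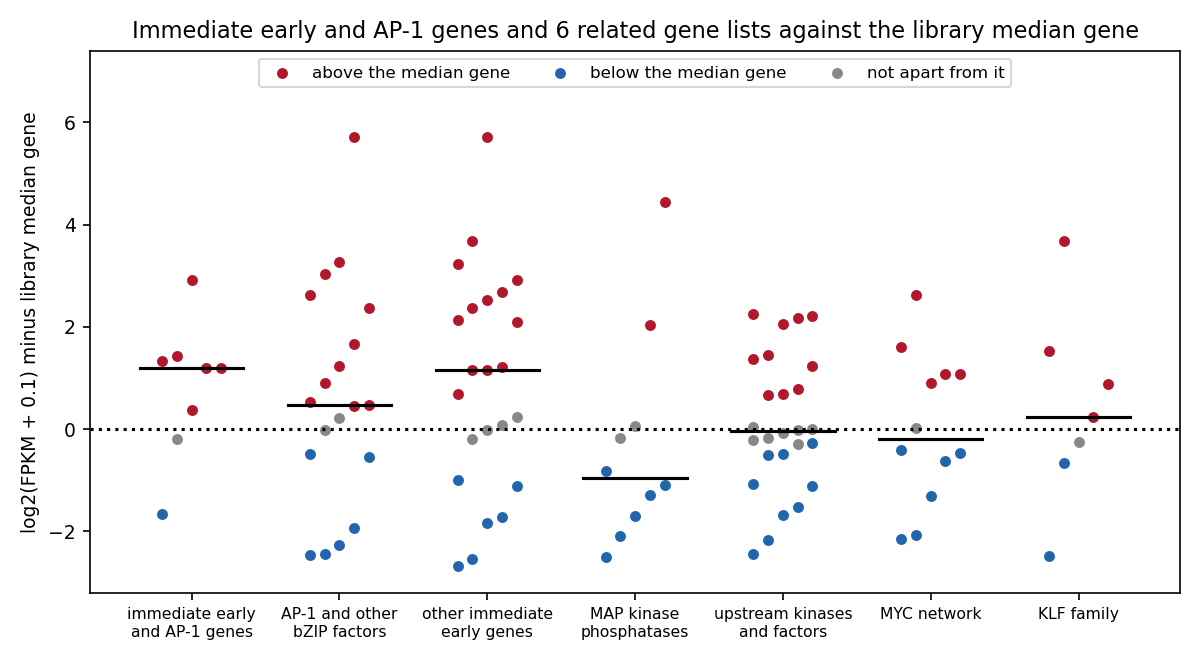
Difference of each gene from the median gene of its library in log2(FPKM + 0.1), for the 8 genes and 6 related lists, coloured by limma's call (above, below or not apart), with a bar at each list's median. The 8 genes and the 23 other immediate early genes tested have medians of 1.19 and 1.15. The MAP kinase phosphatases have a median of -0.96. Genes under the minimum are not drawn and do not enter the medians.

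Of 10 other MAP kinase phosphatase genes tested, 2 were above the median gene, 6 below and 2 not apart. DUSP14 was the highest at 294 ± 68.5 FPKM, followed by DUSP7 at 54.7 ± 0.910, DUSP6, the cytoplasmic ERK phosphatase, at 13.9 ± 0.744 and DUSP5, its nuclear counterpart, at 11.7 ± 1.88 (SD, n = 3). DUSP1 ranked between DUSP7 and DUSP6, at 1.72, 2.35 and 2.58 times the FPKM of DUSP6 in replicates 1, 2 and 3.

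Of 26 upstream kinases and factors tested, of 27 measured, 10 were above the median gene, 9 below and 7 not apart. Among the highest were the kinase genes MAP2K1 (MEK1) at 63.2 ± 6.51 FPKM and MAPK14 (p38 alpha) at 60.4 ± 4.09, with NAB1 at 62.3 ± 8.91 (SD, n = 3). SRF, which encodes serum response factor and was chosen after its values were seen, was steady at 22.3, 21.0 and 19.7 FPKM in replicates 1, 2 and 3. FOS transcripts were lowest in replicate 1 and highest in replicate 3. The activity of SRF protein was not measured, and its part in the FOS values was not tested.

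Of 12 MYC network genes tested, 5 were above the median gene, 6 below and 1 not apart. The highest were MYCBP at 82.3 ± 4.41 FPKM, the MAX-binding antagonist gene MXD4 at 40.7 ± 3.83, the ubiquitin ligase gene MYCBP2 at 28.4 ± 4.50 and MLX at 28.1 ± 1.66 (SD, n = 3). MYCBP rests on an implied length of only 324 bases. MYC exceeded its paralogs MYCL at 9.57 ± 1.15 and MYCN at 2.92 ± 0.352 FPKM, which are named after their values were seen. Against the antagonist gene MXI1, MYC had a ratio of 0.902, 1.19 and 1.69 in replicates 1, 2 and 3.

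Of 7 further Krüppel-like factor genes tested, 4 were above the median gene, 2 below and 1 not apart. KLF5, which acts in epithelial proliferation, was the highest at 171 ± 3.95 FPKM, followed by KLF11 at 39.0 ± 9.16, KLF13 at 25.1 ± 6.93 and KLF3 at 15.6 ± 0.770 (SD, n = 3). KLF11, with 31.3, 49.2 and 36.7 FPKM, and KLF13, with 20.9, 33.1 and 21.3, were highest in replicate 2 as KLF2 was. Of the 7, 3 were highest in replicate 2, against 34% of all genes tested, and 2, KLF3 among them, were lowest there. KLF5 was level across the libraries, at 169, 169 and 176 FPKM.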

How the data were processed

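Per the labels' protocols, RNA was isolated with TRIzol, poly(A) RNA was selected and strand-specific libraries were made with a KAPA kit. The submitters' processing notes list STAR 2.5.4b, Subread 1.6.2 with featureCounts, edgeR 3.22.3, Trimmomatic 0.36 and CASAVA 1.8.2 but assign them no steps. The genome build is not given in the sources used here. The authors gave each gene a raw count in each library, per the file headers. Beside it stands the FPKM that the authors computed. With TMM factors of 0.978, 1.008 and 1.014, count and FPKM implied a whole gene length, within 0.01 bases, for 100% of 13506 genes with reads in all libraries, so FPKM carry TMM scaling. Of 3347 identifiers without a symbol, 730 took one by gene number from the table of the IASCAAS_PekinDuck_T2T assembly. The 8 genes were matched by the file's own identifiers.

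Tests used limma 3.58.1 in R 4.3.3 on log2(FPKM + 0.1) minus the library's median over genes reaching 1 FPKM in each library, at an adjusted p of 0.05. The pseudocount shrinks folds of weakly expressed genes. No count test was the main one because 1 group leaves no contrast between samples. Counting intervals are exact 95% Poisson or binomial intervals and cover counting error only. Alternatives covered pseudocount, minimum, scaling (edgeR 4.0.16, DESeq2 1.42.0), limma's trend and leaving out each replicate. Named are all 8 genes, the 4 highest of each related list and the 5 nearest profiles, with exceptions marked; some results this rule names are left out here. The genes and lists were chosen with earlier results of these data known.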

Additional observations from a re-analysis of the deposited data

How the results depend on the processing

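JUN, EGR1, KLF2, DUSP1 and MYC stayed above the median gene in all 11 alternatives of limma's test. ATF3 stayed below the median gene in the 10 that kept it, and a minimum of 5 FPKM removed ATF3. The alternatives that changed only the scaling could hardly move this test, because it subtracts each library's own median. FOS and FOSL2 depend on which genes set the median: FOS was at log2 0.61 without a minimum and at -0.80 with one of 5 FPKM, and FOSL2 at -0.22 with a minimum of 5 FPKM, where 2 of the genes lay below. Leaving out each replicate gave 6 above each time and 1 to 2 below, the second being FOS without replicate 3. The number varying beyond the 75th percentile was 3 to 4 when a replicate was left out and 2 by edgeR's biological coefficient of variation. For the order by level, an alternative chosen after seeing the data, leaving out each replicate left 4 to 5 neighbour pairs apart. No paired analysis was possible because there is 1 group. Depth limits FOS and ATF3 most, whose counts were 238 to 366 reads.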
